A study of Mus musculus with 12 samples.

Results

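In kidneys of glyoxylate-treated mice, 594 of the 48057 probes of the array class ASMM10EP3A were well above background in the m6A immunoprecipitate on all 6 arrays and in the supernatant on none. They are called IP-only probes here. They were chosen on the scanner software's detection flags alone: the flag for the Cy5 channel, which holds the immunoprecipitated RNA (IP), had to be set on every array, and the flag for the Cy3 channel, which holds the unbound RNA (supernatant), had to be set on no array. The whole array held 60691 probes for transcripts. Because both flags went into the choice, the contrast of IP with supernatant is described below without a test.

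N6-methyladenosine (m6A) is the most common internal modification of messenger RNA. It is written co-transcriptionally by a complex whose catalytic subunit is Mettl3, removed by the demethylases Fto and Alkbh5, and read by YTH-domain proteins that affect splicing, export, translation and decay. An antibody against m6A recovers a transcript when at least some of its molecules carry the mark, and molecules without it stay in the supernatant. A transcript seen in the IP and not in the supernatant may be methylated in a large share of its molecules. It may also be too scarce for the unbound part to be seen. The flags alone cannot tell these or other reasons apart, and none was tested.

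The 6 animals were male C57BL/6 mice aged 6 to 8 weeks, and all had been injected intraperitoneally with glyoxylate, a precursor of oxalate, once a day over 7 days (100 mg/kg, 200 µl each) to produce calcium oxalate nephrocalcinosis. The comparison was between 3 wild-type mice (WT) and 3 mice labelled METTL3-cKO, a conditional knockout (cKO). The labels do not name the promoter or cell type of the deletion, and no saline-treated animal was analysed here. Each kidney gave 1 IP and 1 supernatant sample, hybridised together, so that 12 samples lay on 6 arrays, with IP in Cy5 on every one.

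The files paired an accession with 50 probes, of which 45 matched a RefSeq symbol, and all 50 belong to another probe class, A_51. The IP-only probes are therefore known by identifier alone, without a gene name, position or sequence. A check of the genotype on Mettl3 itself was not made, since no probe was paired with that gene. None of 22 kidney cell markers had a named probe, so the tissue label was not checked either. The file headers gave 2 scan times, one shared by WT arrays 1 and 3 and the other by WT array 2 and the 3 cKO arrays. Among ASMM10EP3A probes, 55.2% to 59.3% were detected in the IP of an array. In the supernatant 40.3%, 54.8% and 33.2% were detected in the WT kidneys and 59.8%, 52.4% and 56.1% in the cKO kidneys, where values of single arrays are given here and below in the order of the replicate number, so detection in the supernatant was lowest on the 2 arrays of the first scan time. Precision is limited by the number of animals, 3 in each genotype, which the labels give as biological replicates.

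The first question was how strong the signals of these transcripts were. The IP-only probes were dim in the IP fraction. Their median background-subtracted IP intensity was 19.7, 23.0 and 24.8 scanner units in the WT kidneys and 22.6, 24.8 and 26.0 units in the cKO kidneys. The 2 genotypes overlapped in these medians. The lowest intensity that the software called well above background in the IP lay between 9.61 and 10.86 units, so the median IP-only probe had 1.96 to 2.59 times the limit of its array. For comparison, the 15092 probes of the class detected in both fractions on all 6 arrays had medians of 128 to 157 units. The brightest single IP-only value was 325 units, on WT array 2.

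In the supernatant the same probes had medians of 2.42, 3.75 and -0.17 units on the WT arrays and 5.58, 3.44 and 4.92 on the cKO arrays. The lowest median was that of WT array 3 and the highest that of cKO array 1. Their background was measured with 308 negative control spots per array, whose median supernatant intensity lay between -2.36 and -1.89 units. The median IP-only probe was thus above the median negative control on all 6 arrays, although below the limit for detection. The 14963 probes of the class never detected in either fraction also lay above the negative controls. Their supernatant medians were -0.57, 0.74 and -0.76 units on the WT arrays and 1.09, 0.54 and 1.00 on the cKO arrays. Part of the distance to the negative controls is therefore shared by undetected probes. The limit for detection in the supernatant was 13.7 and 12.85 units on WT arrays 1 and 3 and 9.43 to 9.92 units on the other 4 arrays. A probe could therefore have more supernatant signal on WT arrays 1 and 3 than on the others and still pass as undetected.

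**Figure D1:**
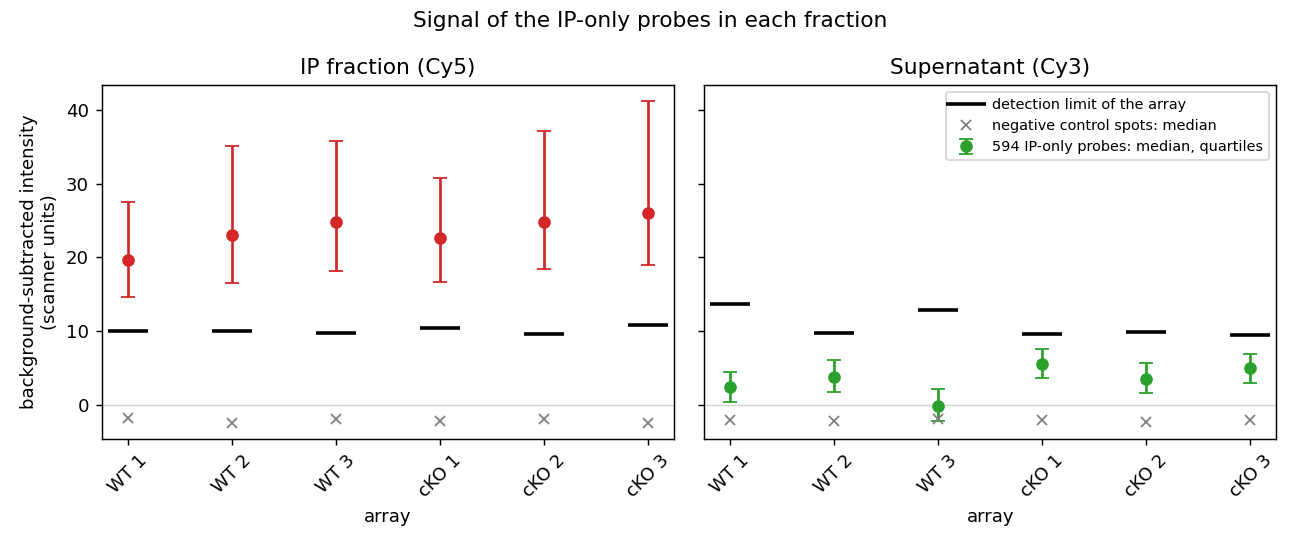
Background-subtracted intensity (scanner units) of the 594 IP-only probes on each array, in the IP fraction (left, Cy5) and in the supernatant (right, Cy3). Points are medians over probes, bars run from the lower to the upper quartile, black dashes are the lowest intensity called well above background on that array, and crosses are medians of 308 negative control spots. By the rule, the quartiles lie above the limit in the IP and below it in the supernatant on every array. The supernatant medians lie above those of the negative controls. Those of probes of the class never detected in either fraction, not drawn, do so too.

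The label "only in the IP" describes the flag and not an absence from the supernatant. The scanner software also gives a weaker flag, set when a spot is positive and significantly different from its background. For IP-only probes this weaker flag was set in the supernatant for 276, 422 and 122 of 594 in WT and for 525, 411 and 495 in cKO. The share, 20.5% to 88.4%, stood against 0.649% to 3.57% of the negative control spots. Probes of the class never detected in either fraction, 14963 in number, had it in 12.1% to 39.6%. Only 12 IP-only probes (2.02%) had a supernatant signal that was not significant on any array, while for 50 (8.42%) it was significant on all 6. The 12 had mean IP intensities from 22.3 to 44.9 units with a median of 26.1, close to the 24.3 of all IP-only probes, and a median supernatant intensity of -0.22 units.

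How the probes lay among all transcripts detected in the IP was described by ranking the 23816 ASMM10EP3A probes detected in the IP on all 6 arrays by their mean IP signal. Of the IP-only probes, 577 (97.1%) were in deciles 1 to 5, the dimmer ones. Decile 1 alone held 211, or 35.5% of them, and 8.86% of the probes in that decile were IP-only. The share fell to 0.882% in decile 5 and 0.126% in decile 7, and it was 0 in deciles 8 to 10. Detection in both fractions on all arrays went the other way, from 14.7% in decile 1 to 100% in decile 10. On the scaled log2 scale, where 0 is the 75th percentile of the array, the median IP-only probe lay at -1.39 and the median probe detected in both fractions at 1.28. Even in decile 1, 351 probes were detected in both fractions on every array, against the 211 that were IP-only.

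**Figure D2:**
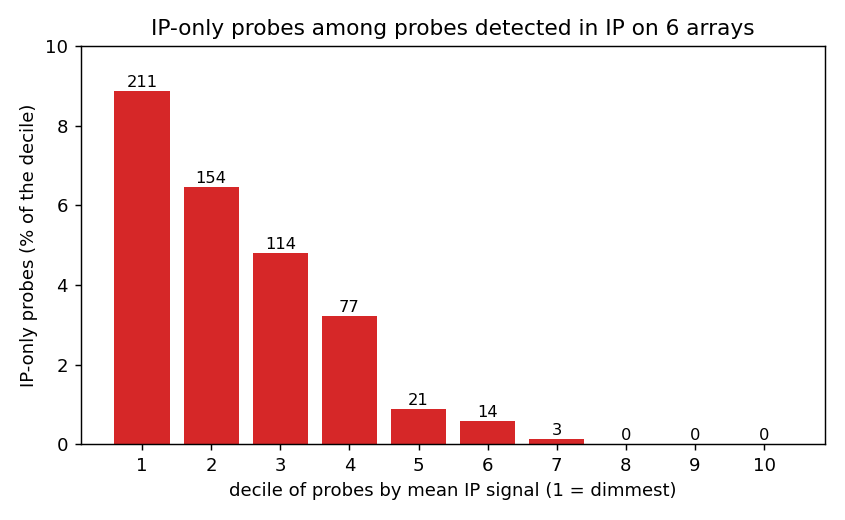
Share of IP-only probes (% of a decile) among the 23816 ASMM10EP3A probes detected in the IP on all 6 arrays, split into deciles by mean IP signal, dimmest first. Numbers over the bars count the IP-only probes, 211 in decile 1, 3 in decile 7 and 0 in deciles 8 to 10.

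The 17 IP-only probes in deciles 6 and 7 were the brightest. Their mean IP intensity ran from 74.3 to 182.4 units with a median of 90.3, and their median supernatant intensity was 4.01 units, near that of the whole group. A probe of that IP brightness was usually detected in the supernatant too: in decile 6, 1797 of 2381 probes (75.5%) were detected in both fractions on all arrays and 14 were IP-only.

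Just outside the rule were 493 probes detected in the IP on all arrays and in the supernatant on 1 array. Their median IP intensity was 24.1 units and their median supernatant intensity 6.21 units, against 24.3 and 3.44 units inside the rule. With supernatant detection on 2 arrays there were 596 probes, with medians of 25.5 and 8.19 units. On the IP side, 281 probes missed the rule because 1 of 6 arrays lacked the IP flag, and their median IP intensity was 14.5 units. The groups were formed on these flags. The rising supernatant medians and the lower IP median of the 281 probes therefore follow from the rule. The opposite set, detected in the supernatant on all 6 arrays and in the IP on none, held 80 probes.

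The number of IP-only probes depended on the arrays asked. On single arrays 7708, 3397 and 12203 probes were IP-only on WT arrays 1, 2 and 3, and 2060, 4628 and 2777 in cKO. WT arrays 1 and 3, with the highest supernatant limits, gave the 2 largest numbers. Asked of the WT arrays alone, the rule took 2118 probes, of which 28% were IP-only in all animals. Asked of the cKO arrays alone it took 996, of which 59.6% were. Of the WT set, 366 probes were detected in the supernatant of all 3 cKO arrays, whereas 0 of the cKO set were detected in the supernatant of all 3 WT arrays. Asked of the 4 arrays of the second scan time, it took 756, and of WT arrays 1 and 3 alone, 6677. Scan time and genotype nearly coincide, so for these counts the 2 cannot be told apart.

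Each array in turn was also left out of the rule. The probes that stayed IP-only on the array left out are the same 594 each time. The shares below therefore restate the counts without 1 array. Of the 694, 717 and 611 probes that were IP-only on the other 5 arrays, 85.6%, 82.8% and 97.2% were IP-only on the WT array left out. Of 990, 620 and 718, the shares on the cKO array left out were 60%, 95.8% and 82.7%. Over all ASMM10EP3A probes the share that was IP-only on these arrays ran from 4.29% on cKO array 1 to 25.4% on WT array 3. Among probes detected in the IP of the array it was 7.45% and 43.8% on these 2 arrays. cKO array 1 removed the most probes, since 341 of the 990 (34.4%) were detected in its supernatant, where the share of detected probes was the highest of all arrays. On WT arrays 1 and 3 the supernatant flag was set for 1 and 0 of them, and the losses came from the IP flag.

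The next question was by how much, at least, these transcripts were richer in the IP than in the supernatant. By the rule itself they drop out of any ratio table that asks for detection in both channels, such as one of the 28349 probes detected in both on at least 3 arrays. A lower bound was computed per genotype as the mean IP signal over the mean of, per array, the probe's own supernatant signal or the dimmest supernatant signal of a detected probe, whichever was higher. Both channels were first put on one scale by normexp background correction with an offset of 50, loess and Aquantile normalisation, so that a value of 1 stands for the typical probe of the same brightness and not for equal amounts of RNA. Since Cy5 always held the IP, any dye bias of a probe is part of its bound.

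The bounds were low. Their median over the IP-only probes was 1.2-fold in WT and 1.28-fold in cKO. A bound above 1 was obtained for 591 of 594 in WT and for 594 in cKO. With the floor at the 5th percentile of detected probes it was obtained for 289 and 585, and the medians were 0.996 and 1.17. It reached 1.5-fold for 51 in WT and 113 in cKO, 2-fold for 7 and 24, and 3-fold for 1 in each. Both genotypes reached 2-fold for 6 probes, all of them among the 17 brightest. The median bound of single arrays, in log2 units, was 0.25, 0.36 and 0.19 in the 3 WT kidneys against 0.37, 0.30 and 0.38 in the 3 cKO kidneys. WT array 2 lay within the cKO range. For 35.5% to 81.3% of the IP-only probes on an array the probe's own signal was the higher one, so these entries are measured ratios near background and not limits, and the medians mix both kinds.

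The size of the bound rested on the processing. With the software's dye-normalised processed signals, each array centred on the median ratio of probes detected in both channels, the median bound was 1.47-fold in WT and 2.36-fold in cKO. This scale adds no offset to dim signals. In WT 508 probes then had a bound above 1 and 140 reached 2-fold, and in cKO 594 and 377 did. Both genotypes reached 4-fold for 20 probes, which include the 6 named by the first scale, and 8-fold for 1. By array the medians in log2 units were 0.15, 1.25 and 0.23 for WT and 1.33, 1.08 and 1.34 for cKO. WT array 2 again lay within the cKO range, and WT arrays 1 and 3, whose supernatant floors on this scale were 134 and 205 units against 70 to 113 on the others, lay far below it. The bounds of the 2 genotypes rest on different floors, so no test was made between them.

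**Figure D3:**
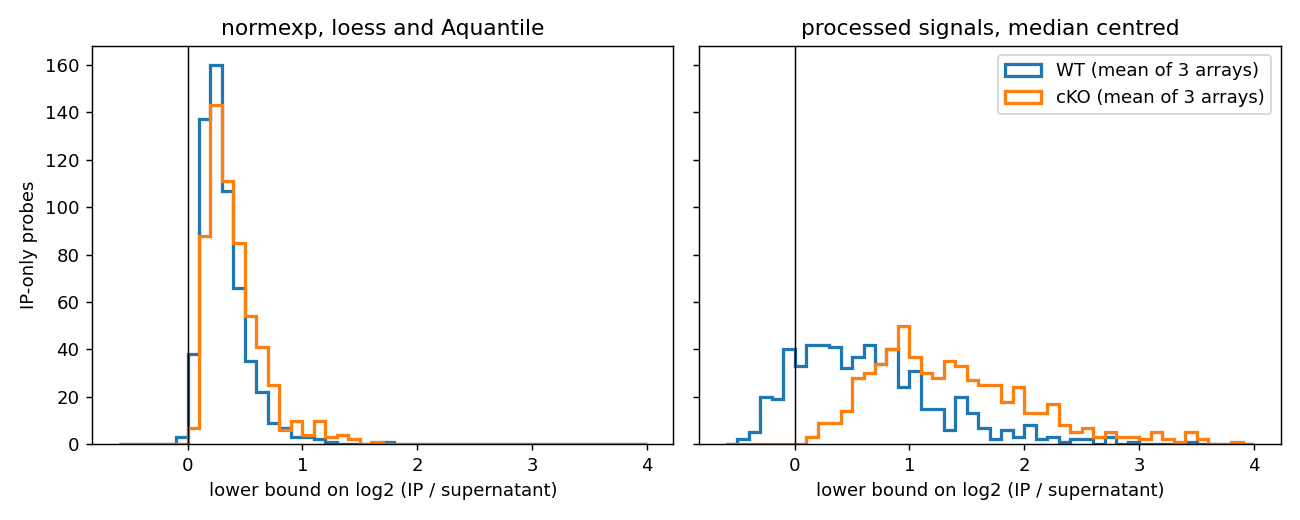
Histograms of the lower bound on the log2 ratio of IP to supernatant over the 594 IP-only probes, in WT (blue) and cKO (orange), each a mean of 3 arrays, after normexp, loess and Aquantile (left) and from processed signals centred on the median (right). The medians are 0.27 and 0.35 on the left and 0.55 and 1.24 on the right, and the black line marks a ratio of 1.

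The highest bound, averaged over the genotypes, was that of probe ASMM10EP3A102256204, which also ranked first with processed signals. Its IP intensity was 89.6, 325.2 and 183.3 units on the WT arrays and 272.8, 106.8 and 116.8 on the cKO arrays, with overlapping groups. Its supernatant intensity was 4.6, 3.1 and -1.1 units in the 3 WT kidneys against 3.5, -1.1 and -0.2 in the 3 cKO kidneys, so no array came near its limit. The bound was 3.27-fold in WT and 3.24-fold in cKO, and with processed signals 10.7-fold and 14.7-fold. Its scaled log2 IP signal of 1.52 ± 1.00 (SD, n = 3) in WT and 1.24 ± 0.73 in cKO differed by -0.28 ± 0.52 (SE), which is less than the spread between arrays. Without WT array 2 the difference of ASMM10EP3A102256204 was 0.21, and over the alternatives it ran from -1.27 to that value. Across the 594 probes the WT and cKO bounds correlated at r = 0.75. The 2 values of a probe share its sequence and dye behaviour, so this is a description.

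The central comparison of the study, cKO against WT, did not enter the choice of these probes and was tested in the IP signal. One limit comes from the rule: a transcript whose IP signal fell below detection on any array cannot be an IP-only probe, so complete losses are not among them. Of the 2118 probes IP-only on the 3 WT arrays, 29 were undetected in the IP of all 3 cKO arrays. Of the 996 probes IP-only on the 3 cKO arrays, 36 were undetected in the IP of all 3 WT arrays. The 2118 and 996 probes were taken with different supernatant limits, and no share over the whole class was computed. The counts 29 and 36 therefore do not compare losses with gains. These 29 and 36 probes lie outside the 594.

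The IP signal of the group as a whole differed little between the genotypes. The median scaled log2 IP signal over the 594 probes was -1.52, -1.34 and -1.22 for WT and -1.52, -1.37 and -1.30 for cKO. The means of these medians, -1.36 ± 0.15 (SD, n = 3) and -1.40 ± 0.11, differed by less than the spread between arrays. Per probe, the median difference of cKO minus WT was -0.04 log2 units, with quartiles of -0.32 and 0.28, and over all 33504 probes tested in the IP it was -0.01. The IP signal was higher in cKO for 275 of the IP-only probes (46.3%) and lower for 319, and over all probes tested 49.2% were higher. Scaled on spike-in controls the median difference was -0.23 for the IP-only probes and -0.20 for all probes, so that both moved down together. Within the second scan time, which holds 1 WT array, it was -0.03 and 0.01.

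No single IP-only probe passed the threshold. In limma's moderated test with Benjamini-Hochberg adjustment over all 33504 probes, 0 of 594 had an adjusted p under 0.05, where 0.104% of all probes tested (35) passed. An unadjusted p under 0.05 was reached by 93 IP-only probes (15.7%), beside 11.8% of all probes. Of the 93, 38 were higher in cKO, or 6.4% beside 4.68% of all probes, and 55 were lower, or 9.26% beside 7.17%. The WT and cKO values did not overlap for 110 IP-only probes (18.5%), beside 17.6% of all probes. Of these, 46 were higher in cKO, or 7.74% beside 6.84% of all probes, and 64 were lower, or 10.8% beside 10.7%. A difference of at least 2-fold was measured for 23 (3.87%), beside 2.99%. These shares are near those of all probes. The median SD between arrays was 0.34 log2 units in WT and 0.33 in cKO, against 0.29 and 0.21 for probes detected in both fractions. With a variance trend and robust fit 2 IP-only probes passed, and with quantile scaling, spike-in scaling or a filter of detection on all 6 arrays 1 passed. Of all probes tested, 70 passed with that fit, and 60, 46 and 48 with the other settings in that order.

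**Figure D4:**
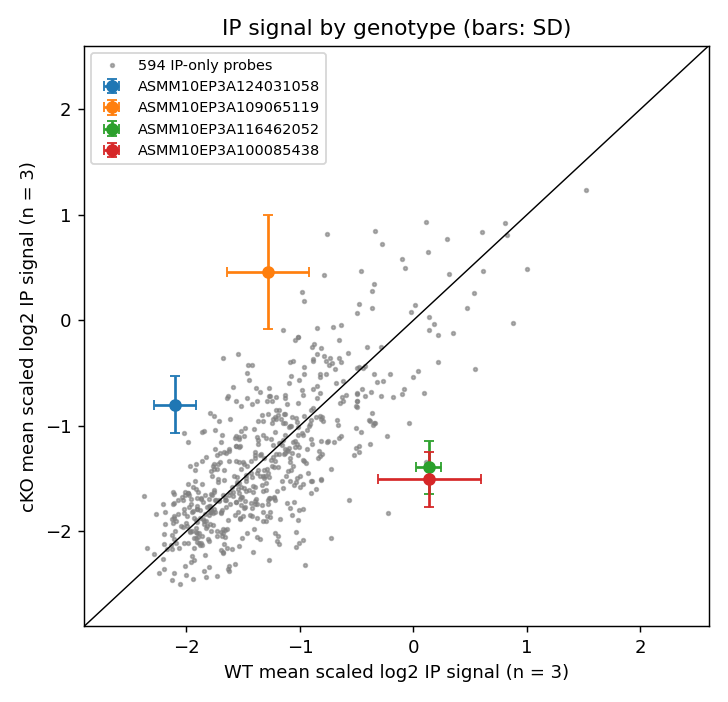
Mean scaled log2 IP signal of each of the 594 IP-only probes in WT (horizontal) and cKO (vertical), n = 3 arrays each, with the line of equality. The 4 coloured probes are those with the smallest p in each direction, with SD bars, and lie 1.30 to 1.74 log2 units above or 1.53 to 1.65 below the line.

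The lower signals with the smallest p in cKO were those of 2 probes. The scaled log2 IP signal of ASMM10EP3A116462052 was 0.23, 0.02 and 0.17 on the WT arrays and -1.51, -1.57 and -1.11 on the cKO arrays. All WT values lay above all cKO values by more than 1 log2 unit. The difference was -1.53 ± 0.22 (SE), or 2.89-fold, and limma's adjusted p was 0.0584. It is the probe that passed under each of the settings with 1 call, with an adjusted p of 0.0442 for quantile scaling, 0.0414 for spike-in scaling and 0.0312 for the stricter filter, and also with the trend and robust fit (0.0224). Over the 18 alternatives that give an adjusted p, it ran from 0.0224 to 0.278 and the difference from -1.72 to -0.56, the smallest size being that with normexp, loess and Aquantile. Its supernatant intensity was 3.3, -2.8 and -3.7 units in the 3 WT kidneys against 0.7, 6.8 and 4.4 in the 3 cKO kidneys, below the limit on every array.

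The scaled log2 IP signal of ASMM10EP3A100085438 was -0.27, 0.07 and 0.63 for WT and -1.30, -1.42 and -1.80 for cKO, again without overlap. The difference was -1.65 ± 0.28, or 3.13-fold, the largest negative difference among the IP-only probes, and limma's adjusted p was 0.094. With the trend and robust fit the adjusted p was 0.0458, and over the alternatives it ran from that value to 0.391. The difference ran from -1.85 to -0.55, again smallest in size with normexp, loess and Aquantile.

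In the other direction, ASMM10EP3A109065119 had the largest positive difference. Its scaled log2 IP signal was -1.26, -1.65 and -0.93 on the WT arrays and -0.03, 0.37 and 1.04 on the cKO arrays. All cKO values lay above all WT values. The difference was 1.74 ± 0.32 (SE), or 3.33-fold, and limma's adjusted p was 0.115. Over the alternatives the difference ran from 0.80, with normexp, loess and Aquantile, to 2.11. In scanner units the IP intensity was 22.1, 17.5 and 29.4 in WT against 62.7, 86.6 and 133.3 in cKO. Its lower bound was 1.24-fold in WT and 2.16-fold in cKO. Its supernatant intensity, 1.7, 0.1 and -5.0 units in the 3 WT kidneys against 9.1, 2.5 and 7.2 in the 3 cKO kidneys, came near the limit of 9.59 units on cKO array 1.

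The smallest p among higher signals was that of ASMM10EP3A124031058, at -2.21, -1.88 and -2.19 for WT and -0.99, -0.49 and -0.93 for cKO. In WT its IP intensity was 11.2, 16.3 and 11.2 units, against limits of 10.03, 10.02 and 9.75 units on these arrays. The difference was 1.30 ± 0.23, or 2.46-fold, and limma's adjusted p was 0.111. Over the alternatives the difference of ASMM10EP3A124031058 ran from 0.36, with normexp, to 1.45. Under the 18 alternatives with an adjusted p neither of the higher probes passed, with adjusted p from 0.0783 to 0.428 for this probe and from 0.0555 to 0.327 for ASMM10EP3A109065119. The second scan time holds WT array 2 alone of the WT arrays. Within it the differences of ASMM10EP3A116462052, ASMM10EP3A100085438, ASMM10EP3A109065119 and ASMM10EP3A124031058 were -1.41, -1.57, 2.11 and 1.08. The genotypes do not overlap for these 4 probes, so the same direction as over all arrays was fixed in advance. With scan as a block none of the 4 passed, and the differences were the same as within the second scan time. The first scan time holds WT arrays only, so this block also sets WT array 2 alone against the cKO arrays. At an unadjusted p under 0.05 with a 1.5-fold difference, 81 of 594 IP-only probes passed, beside 3368 of all 33504 probes tested. The 4 were among them, with unadjusted p from 7.72e-05 to 0.000452 in limma's test, since they were picked for their small p.

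**Figure D5:**
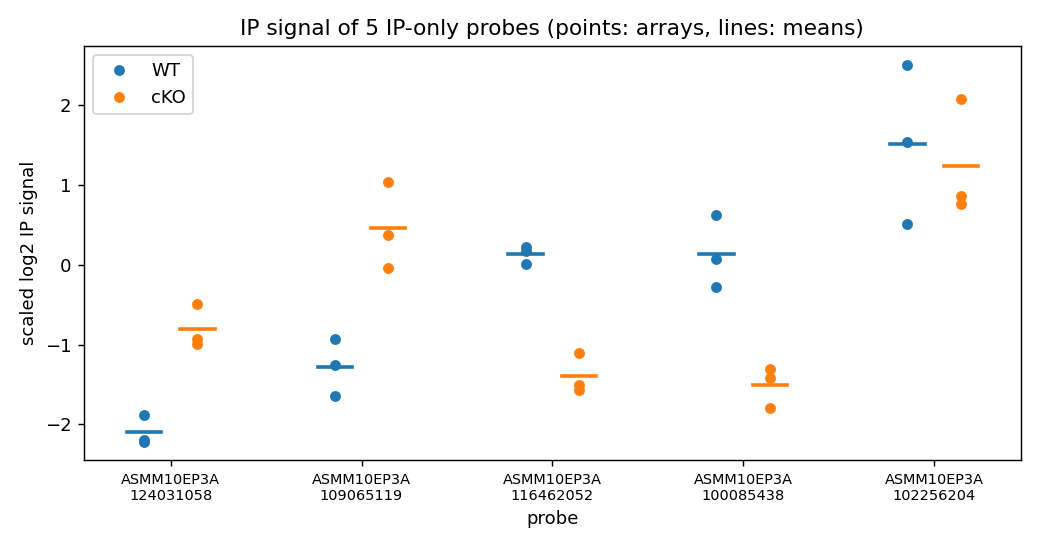
Scaled log2 IP signal (0 is the 75th percentile of the array) of 5 IP-only probes on each WT (blue) and cKO (orange) array, with lines at the means of 3 arrays. For the first 4 probes the genotypes do not overlap, and for ASMM10EP3A102256204, the probe with the highest bound, they do.

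Apart from the genotype, the order of the IP-only probes by IP signal was only partly shared between animals. Over the 594 probes the IP signals of 2 arrays correlated at r = 0.41 to 0.85, with 0.48 to 0.74 among the WT arrays and 0.65 to 0.85 among the cKO arrays. The genotype means correlated at r = 0.74, against 0.98 over the probes detected in both fractions. All arrays share the probe sequences and the scanner, and the IP-only probes span a narrower range of signals than the others, so these values are descriptive.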

How the data were processed

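Kidney RNA of 6 mice was split with an antibody against m6A, and the IP (Cy5) and supernatant (Cy3) were hybridised to one array per animal, per the labels' protocols. The deposited values are linear scanner intensities of 62976 spots per array, and the submitters' processing notes name Agilent Feature Extraction 11.0.1.1. Per the file headers they include background-subtracted and dye-normalised processed intensity and flags of 0 or 1 (other values) for detection. IP-only probes have 1 spot each, and none had an outlier spot. Groups and replicate numbers came from the sample titles.

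The further steps used limma 3.58.1 in R 4.3.3. IP signal was log2 processed intensity minus the array's 75th percentile over transcript probes. Probes detected in the IP on at least 3 arrays were fitted (lmFit, eBayes, two-sided, Benjamini-Hochberg, threshold 0.05). The fit was also run on simulated data with planted differences and independent noise between arrays. That run checked the computation alone, since it held no scan effect. Probes named are the 2 per direction with called, non-overlapping differences or else the smallest p, and the highest bound. The members, lists and rules were chosen with earlier results of these data known. Lists of m6A, fatty acid oxidation and oxalate genes (24 in all) could not be used, since probes of this class carry no symbol. Alternatives were other scalings, background corrections, filters, variance models, thresholds, blocks and floors, and leaving out each array.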

Additional observations from a re-analysis of the deposited data

How the results depend on the processing

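The count of 0 called IP-only probes was 1 with quantile scaling, spike-in scaling or detection on 6 arrays, 2 with trend and robust variance and 81 at an unadjusted p under 0.05 with 1.5-fold. It was 0 under the other alternatives, every setting without 1 array included. Over all 33504 probes the count of 35 was 60 with quantile scaling, 46 with spike-in scaling and 70 with trend and robust variance. It was 48 of 28250 with detection on 6 arrays, and 3368 at the unadjusted threshold with 1.5-fold. The median difference of the IP-only probes, -0.04, was -0.23 with spike-in controls and ran from -0.10 to 0.03 without 1 array. None of the 4 probes named for their difference reversed. With arrays left out they could not, since the genotypes do not overlap for these probes. The difference of ASMM10EP3A102256204, -0.28, ran from -0.79 to 0.21 without 1 array, the latter without WT array 2. The replicate block gave 0 called IP-only probes and a median of -0.04, and took the called probes of the whole array from 35 to 11. Same-numbered arrays correlated in their deviations at 0.10, 0.26 and 0.07, and 5 of 6 arrays correlated best with their own number. The labels state no link between same-numbered animals of the 2 genotypes, so these values are a description and show no pairing. Scan as a block gave 0 called probes, both among the IP-only probes and over the whole array. That block sets WT array 2 alone against the cKO arrays. Without 1 array the whole-array count ran from 0 to 11.

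The number of IP-only probes, 594, was 611 to 990 without 1 array (990 without cKO array 1), 2118 on the WT and 996 on the cKO arrays alone, 12 without any significant supernatant signal, 1087 with supernatant detection allowed on 1 array and 6677 on WT arrays 1 and 3, the last chosen after seeing the data. The median bounds for WT and cKO were 1.47 and 2.36 with processed signals and 1.28 and 2.28 with background-subtracted signals. With the floor at the 5th percentile of detected probes they were 0.996 and 1.17, where the WT value does not show an enrichment. As a lower bound, that value does not show the absence of one either. Without 1 array the median bounds of the first scale ran from 1.17 to 1.24 and from 1.26 to 1.29. Signals near background limit all bounds.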

Other observations

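The same flags were read in the other probe classes of the array. In the class ASMM10EP3B 91 of 8497 probes were detected in the IP on all 6 arrays and in the supernatant on none, 3.03% of those detected in the IP throughout, beside 2.49% in ASMM10EP3A. In ASMM10SM1 it was 20 of 4087, or 1.44%, and there the opposite set, detected in the supernatant alone, was larger, with 55 probes against 10 in ASMM10EP3B. In the small class A_51 it was 1 of 50, or 2.63% of those detected in the IP throughout. That probe, A_51_P425205, has an accession but no RefSeq symbol. Its scaled log2 IP signal averaged -1.86 ± 0.47 (SD, n = 3) for WT and -2.45 ± 0.26 for cKO, and limma's adjusted p for the difference was 0.459.

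Among the 45 probes with a gene symbol, 36 were detected in the IP on all arrays and 0 of these were IP-only. The nearest was Anxa8, which encodes an annexin, a calcium-dependent phospholipid-binding protein. It was detected in the supernatant on 1 of 6 arrays, and the scaled log2 IP signal of Anxa8, on 3 arrays per genotype, averaged -1.10 ± 0.18 (SD) for WT and -1.10 ± 0.20 for cKO. Mbp, the myelin basic protein gene, and Trp53rka were detected in the supernatant on 2 arrays. Mbp averaged -1.48 ± 0.17 for WT and -0.88 ± 0.32 for cKO, and Trp53rka -0.48 ± 0.21 and -1.24 ± 0.10. Neither difference passed, limma's adjusted p being 0.39 for Mbp and 0.259 for Trp53rka. All 3 genes lay below the 75th percentile of the IP signal, as most IP-only probes did. They were singled out after their values were seen.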
